A study of Homo sapiens with 32 samples.

Results

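Most subunits of the mitochondrial respiratory chain and of ATP synthase are encoded in the nucleus, and the new transcripts of 86 such genes were followed here as HUH7 hepatoma cells left mitosis. At 80 minutes of release, 40 of the 86 genes stood at least 2-fold above their level in arrested cells, as did 20.1% of all genes kept after a filter on low values. With columns scaled to equal medians 14 did (9.26% of all genes), and with quantile normalization 4 (7.05%). The members were all protein-coding genes of the deposited table whose current symbol begins NDUFA, NDUFB, NDUFC, NDUFS or NDUFV with a number, is SDHA to SDHD, or begins UQCR, COX4 to COX8, ATP5F1, ATP5M, ATP5P or ATP5IF1. They were 86 of 18404 protein-coding genes and of 24238 genes in all. Complex I had 37 members, complex II 4, complex III 9, complex IV 16 and complex V 20. The names also took in the readthrough genes NDUFC2-KCTD14 and ATP5MF-PTCD1 and the near copies UQCRHL and ATP5MGL, which can share reads with their neighbours or parent genes. They left out the 4 nuclear genes CYC1, CYCS, NDUFAB1 and COXFA4 (formerly NDUFA4), which are given separately. Subunits encoded in mitochondrial DNA were not analysed here.

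The respiratory chain sits in the inner mitochondrial membrane. Complex I takes electrons from NADH and complex II from succinate, complex III passes them from ubiquinol to cytochrome c, and complex IV hands them to oxygen. Complexes I, III and IV pump protons as they do so, and complex V, the ATP synthase, lets the protons back through a rotating ring and makes ATP. All complexes except II also hold subunits made inside the organelle, so nuclear and mitochondrial gene products must meet in fixed numbers. The nuclear genes lie on many chromosomes and are known targets of the factors NRF1, GABPA and YY1.

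HUH7 is an established human hepatoma line. For the release series, cells were held for 24 hours in 2 mM thymidine, which stalls DNA replication, freed for 2 hours, and treated for 16 hours with 0.06 ug/mL nocodazole, which blocks the spindle. Mitotic cells were shaken off, washed and replated, and the stated release times were 0, 40, 80, 105, 165 and 300 minutes. An asynchronous culture had no block. Every one of these 7 groups received 0.5 mM 5-ethynyl uridine (EU), a uridine analogue built into new RNA, in a pulse of 40 minutes, with no word in the labels on whether the stated time is its start or its end. The labels list 32 samples in 11 groups, 3 samples for each of the 7 groups used here. No background stands beside the values, since the unlabelled control was not analysed here, nor were the later groups with spike-in RNA.

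The table held 1 pooled value per group and gene in FPKM, a measure of fragments scaled to gene length and library size, so there is no replicate error, no test and no p-value behind any difference given here. Gene sums ran from 3020410 FPKM at 0 minutes to 5126010 at 105 minutes, and the median of the 22936 genes kept (at least 1 FPKM in at least 3 groups) from 40.1 to 53.5 FPKM. All 86 members were kept. Low values in each column fell on evenly spaced steps once multiplied by the length of the gene, and these steps gave a counting interval, on the reading that each step stands for 1 read. Such an interval holds counting error only and nothing of the spread between cultures, and without molecular identifiers reads can be copies of one another. Among the 81 members that reached 25 FPKM in some group, the median count of steps was 418 at 0 minutes and 1233 in asynchronous cells. The fewest in any group was 13.9, for COX8A at 300 minutes. The values followed the whole gene with its introns: of 4493 pairs of transcripts with the same ends and another exon length, 96.3% had identical values, against 29.99% of 28577 pairs with ends over 500 bases apart. In such bulk samples, fewer cells of a type and less RNA per cell cannot be told apart. Hepatocyte markers were present, none of 10 at 0 in any group, with summed levels of 2334 to 4346 FPKM in the release and 17384 in the asynchronous culture (ALB 128 to 662 FPKM between 0 and 300 minutes and 2295 asynchronous, AFP 133 to 1078 and 3964). Stroma or endothelium markers (6 genes, 50.8 to 79.1 FPKM summed, none at 0) were low. Blood markers (6 genes, 137 to 388 FPKM summed, with 1 at 0 in all groups but that of 40 minutes) were not all low. The highest single blood marker stood at 73.7 FPKM at 0 minutes and 364 FPKM in the asynchronous culture. The part of both sets in the members' values was not tested.

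Promoter stretches of 6 members show the kind of sequence in front of these genes. They are the 150 bases before the RefSeq start site in GRCh38.p14, on the strand of the gene. Capitals mark the letters of a motif on either strand: GCGCATGC for NRF1, CCGGAAG for the ETS factors, among them GABPA, and AAGATGG for YY1. The first 3 were chosen because they hold NRF1 and ETS letters together, UQCRQ and NDUFC1 because they had the 2 largest rises from 0 to 80 minutes, and NDUFS4 because it had the lowest mean level of complex I over the 7 groups and no rise.
ATP5PF (chr21:25735055-25735204, minus strand): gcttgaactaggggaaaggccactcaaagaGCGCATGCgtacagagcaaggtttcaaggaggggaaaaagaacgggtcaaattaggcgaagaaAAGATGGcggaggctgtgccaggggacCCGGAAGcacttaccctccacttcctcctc
SDHD (chr11:112086723-112086872, plus strand): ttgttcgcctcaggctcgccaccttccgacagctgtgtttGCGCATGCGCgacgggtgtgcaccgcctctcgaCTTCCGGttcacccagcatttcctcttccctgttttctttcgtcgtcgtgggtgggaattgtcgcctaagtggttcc
COX5B (chr2:97645912-97646061, plus strand): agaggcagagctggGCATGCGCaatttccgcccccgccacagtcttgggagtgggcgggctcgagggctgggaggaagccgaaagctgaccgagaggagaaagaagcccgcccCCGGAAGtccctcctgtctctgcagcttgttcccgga
UQCRQ (chr5:132866492-132866641, plus strand): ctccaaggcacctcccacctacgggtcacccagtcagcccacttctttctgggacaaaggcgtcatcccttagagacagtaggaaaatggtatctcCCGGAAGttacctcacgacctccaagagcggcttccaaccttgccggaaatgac
NDUFC1 (chr4:139302552-139302701, minus strand): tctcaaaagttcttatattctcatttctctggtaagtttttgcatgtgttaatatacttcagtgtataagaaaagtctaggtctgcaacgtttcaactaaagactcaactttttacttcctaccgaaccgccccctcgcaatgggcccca
NDUFS4 (chr5:53560489-53560638, plus strand): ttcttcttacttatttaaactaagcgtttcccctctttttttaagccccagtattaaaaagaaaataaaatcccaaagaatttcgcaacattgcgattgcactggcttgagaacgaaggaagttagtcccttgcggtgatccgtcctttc
ATP5PF, a subunit of the peripheral stalk of ATP synthase, carried all 3 motifs within this stretch. In SDHD, a membrane anchor of complex II, the capitals of the first run hold the NRF1 letters on both strands at once, since the motif is nearly its own reverse complement. NDUFC1 and NDUFS4 held none of the letters before the start site, and in NDUFS4 AAGATGG began 22 bases after it.

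In arrested cells all members had some signal, though without the unlabelled control the part of it that was labelled RNA is not known. At 0 minutes the median member stood at 147 FPKM, with the middle 50% of members between 98.7 and 226 FPKM. The median was 139 for complex I, 182 for complex II, 152 for complex III, 134 for complex IV and 211 for complex V. COX4I1, a nuclear subunit of cytochrome c oxidase, had the highest value at 1009 FPKM, and COX7A1, a form of muscle and heart, the lowest at 1.85. In the asynchronous culture the median member stood at 207 FPKM, again with COX4I1 on top (1009.6 FPKM). Over the 7 groups the highest means in each complex belonged to NDUFV1 and NDUFA13 (I), SDHA and SDHD (II), UQCRHL and UQCRC2 (III), COX4I1 and COX7A2 (IV) and ATP5IF1 and ATP5F1E (V). FPKM are given per length, so genes of unlike length can be set side by side within limits. UQCRHL can share reads with its parent gene. NDUFA5 transcripts of the same 20.8 kb span stood at 190 and 77.3 FPKM at 0 minutes.

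**Figure D1:**
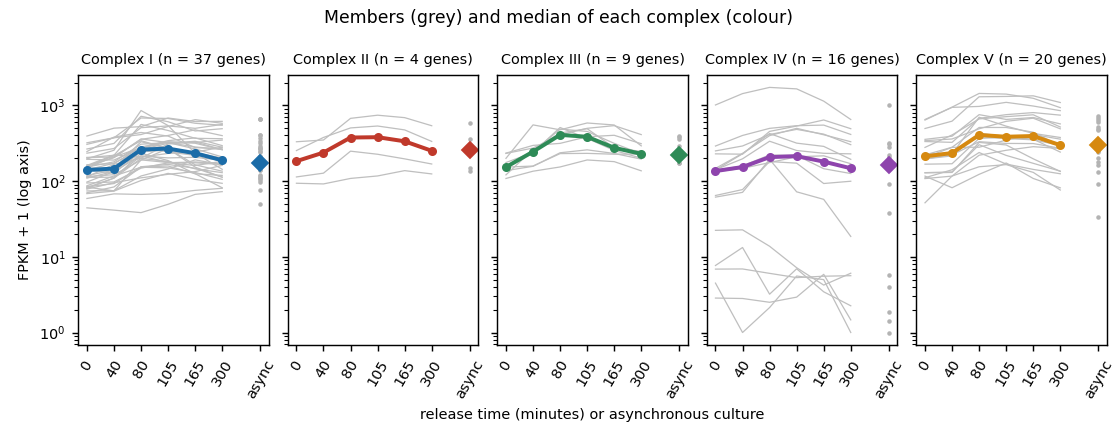
Levels of the 86 members in the 7 groups, 1 panel per complex, as FPKM + 1 on a log axis with release times evenly spaced. Grey lines and dots are single genes and coloured markers the median of the complex; the medians were highest at 80 minutes in complexes III and V and at 105 minutes in complexes I, II and IV.

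In arrested cells most members stood below the asynchronous culture. On the scale of log2 of the (FPKM + 1) ratio used throughout, the median at 0 minutes against the asynchronous culture was -0.49 for all members and -0.14 for all genes kept. Of the members, 9 were at least 2-fold lower (19.0% of all genes kept were) and 3 at least 2-fold higher (14.1%). The counting interval of the ratio lay below 1 for 65 members and above 1 for 7, and it held 1 for 14. By complex the median was -0.69 in complex I, where 7 of 37 were at least 2-fold lower, -0.52 in complex II with 0 of 4, -0.53 in complex III with 1 of 9, -0.07 in complex IV with 0 of 16, and -0.46 in complex V with 1 of 20. All 3 higher members were of complex IV. Genes of like level were as low: with a mean of 100 to 300 FPKM the median of all kept genes was -0.66 and 29.9% were at least 2-fold lower, against -0.47 and 5 of 45 members. Between 300 and 1000 FPKM it was -0.55 and 22.3%, against -0.58 and 3 of 30 members.

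UQCRQ, a small subunit of complex III, had the largest deficit, 3.14-fold (95% counting interval 2.16 to 4.81) below the asynchronous culture, at 119.7 against 378 FPKM. NDUFS8, which carries iron-sulfur clusters in the peripheral arm of complex I, was 2.52-fold (95% counting interval 2.27 to 2.83) lower, at 264 against 667 FPKM. NDUFA10, an accessory subunit of complex I, stood at 139 against 336 FPKM, 2.41-fold lower. The c-ring gene ATP5MC2 was 2.33-fold lower (107 against 249.9 FPKM), and NDUFS6, an accessory subunit that binds zinc, 2.31-fold lower (117 against 272 FPKM). The others of the 9 were NDUFS4, NDUFA9, NDUFB11 and NDUFV2, at 2.17-, 2.16-, 2.09- and 2.06-fold. Of the 7 catalytic core genes of complex I, 2 were at least 2-fold lower (NDUFS8 and NDUFV2) and the median was -0.82. Above the asynchronous level by less than 2-fold stood COX8A (60.3 against 36.3 FPKM) and NDUFC1 (195 against 121 FPKM). The deficit depended on the scaling of the columns. With equal medians or with quantile normalization, 1 member stayed at least 2-fold lower, UQCRQ under both (10.7% and 11.9% of all genes). The share of higher genes among all those at least 2-fold apart went from 42.7% to 68.1% and 50.2%.

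**Figure D2:**
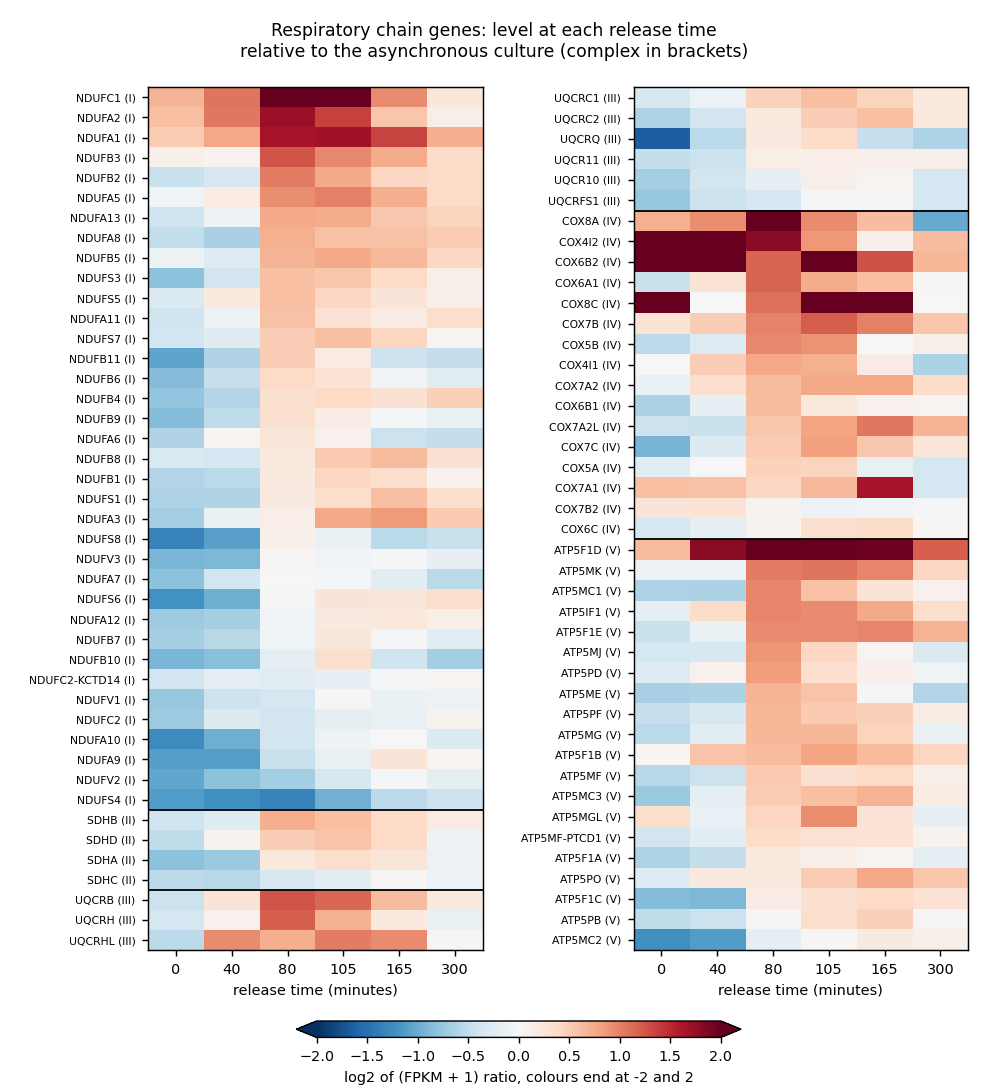
Single members (85 of 86, complex in brackets) at the 6 release times, as log2 of the (FPKM + 1) ratio to the asynchronous culture, with colours ending at -2 and 2. Blue at 0 minutes gives way to red by 80 minutes in most genes; NDUFS4 stays blue throughout, and COX4I2, COX6B2 and COX8C are red at 0 minutes.

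The first 40 minutes brought little. From 0 to 40 minutes the median member moved by 0.22 and the median gene by 0.10, and 3 members were at least 2-fold higher (3.24% of all genes kept) and 1 at least 2-fold lower (2.05%). The 3 were UQCRHL (2.77-fold), a copy of the hinge protein gene UQCRH, ATP5F1D (2.26-fold), which codes for the delta subunit of the central stalk, and UQCRQ (2.16-fold). Their counting intervals lay above 1. The 1 lower member was COX8C, a testis form of subunit 8, listed at 0 at 40 minutes, so that no fold is given. Under quantile normalization the 3 became 2 (3.02% of all genes), without UQCRQ.

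Between 40 and 80 minutes the level climbed. The median member was 0.69 higher at 80 than at 40 minutes, against 0.18 for all genes kept, and 16 members were at least 2-fold higher (13.5% of genes) and 1 lower (2.72%). The 16 were led by NDUFC1 at 3.34-fold, ATP5MC1 at 3.05-fold and COX8A at 2.72-fold. The lower one was COX6B2, a testis form. With equal medians 7 members were at least 2-fold higher (7.25% of genes), and with quantile normalization 1 (6.12%).

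Against arrested cells, most members stood higher at 80 minutes. The median difference was 0.96 for the members and 0.31 for all genes kept, and 80 of the 86 members were above their level at 0 minutes. At least 2-fold higher were 40 members (20.1% of all genes kept), and 2 were at least 2-fold lower (2.66%). All 40 had counting intervals above 1, as did 79 members in all, and 2 had intervals below 1. The median was 0.89 in complex I (15 of 37 at least 2-fold higher), 1.01 in complex II (2 of 4), 0.81 in complex III (4 of 9), 0.75 in complex IV (5 of 16) and 1.11 in complex V (14 of 20). Since members are mostly well transcribed, genes of like level are a closer background. Among all kept genes with a mean of 100 to 300 FPKM the median was 0.71 and 31.8% were at least 2-fold higher, against 0.98 and 22 of 45 members. Between 300 and 1000 FPKM it was 0.87 and 39.4%, against 1.02 and 16 of 30 members.

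How many members pass 2-fold rested on how the columns were scaled. As deposited, 88.3% of all genes at least 2-fold apart were higher at 80 minutes. With columns set to equal medians, 60.2% were, and 14 members stayed at least 2-fold higher (9.26% of all genes). With quantile normalization, 59.6% were, and 4 members stayed, NDUFC1, UQCRQ, COX8A and ATP5F1D (7.05% of all genes). The 14 were these 4 with UQCRB, COX6A1, ATP5MC1, NDUFB11, UQCRH, COX5B, NDUFB2, COX7C, NDUFS8 and NDUFS3.

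**Figure D3:**
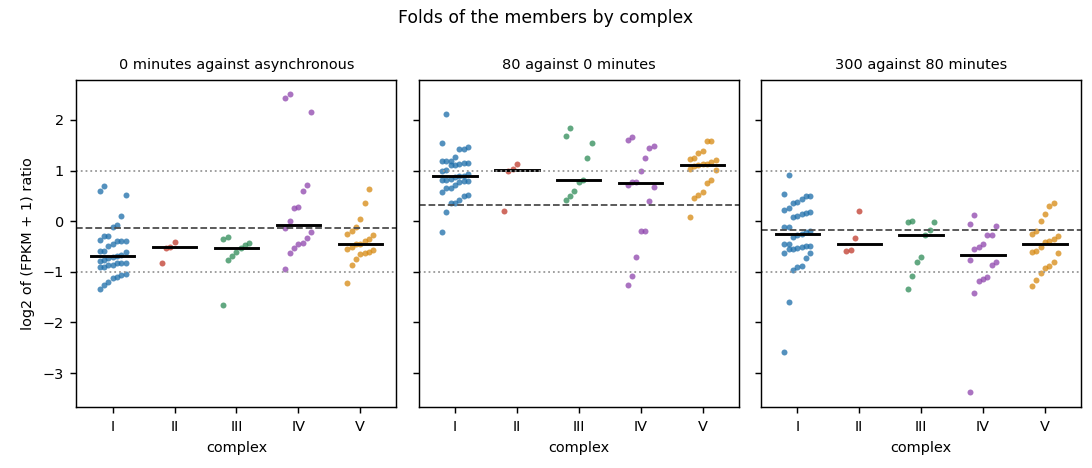
Log2 of the (FPKM + 1) ratio of each member in 3 comparisons, by complex. Bars are the medians of the complexes, the dashed line the median of all 22936 genes kept and the dotted lines 2-fold; at 80 against 0 minutes all 5 medians lie above the dashed line, and at 300 against 80 minutes COX8A and NDUFC1 lie lowest.

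In complex I the largest rise of all belonged to NDUFC1, a small accessory subunit of the membrane arm. Its level was 195, 254, 852, 539, 232 and 142 FPKM at 0, 40, 80, 105, 165 and 300 minutes and 121 asynchronous. It was 4.35-fold (95% counting interval 4.01 to 4.76) higher at 80 than at 0 minutes, and the peak was narrow, with both neighbouring times far below it. All 3 of its distinct transcript values followed the same course, with 841, 856 and 858 FPKM at 80 minutes. Their spans of 12.6, 11.27 and 11.29 kb belong to the same gene and can share most reads, so this is not separate evidence. About 38% of its span lies under MGARP on the same strand, and MGARP stood at 38.8 FPKM at 0 and 46.5 FPKM at 80 minutes. NDUFB11 (78.6 to 232 FPKM) and NDUFB2 (202 to 558 FPKM), also of the membrane arm, were 2.93- and 2.76-fold higher.

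The 7 core genes of the peripheral arm of complex I, through which electrons pass from NADH to ubiquinone, differed among themselves. NDUFS8 went from 264 to 715 FPKM (2.704-fold) and NDUFS3 from 96.02 to 260.0 FPKM (2.69-fold), and these 2 were the only ones at least 2-fold higher. NDUFS7 (1.83-fold) and NDUFS1 (1.73-fold) stayed under 2-fold. NDUFV1 and NDUFV2 were at 1.33- and 1.28-fold. NDUFV1, which binds NADH, reached its highest value at 105 minutes (678 FPKM) and NDUFV2, its partner, at 165 minutes (646 FPKM). NDUFS4, an accessory subunit of the same arm, was lower at 80 than at 0 minutes. Its level was 43.3, 40.3, 37.3, 48.3, 65.7 and 71.5 FPKM through the release and 95.2 asynchronous, so that it passed its starting level at 105 minutes and never reached the asynchronous one.

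Complex II, succinate dehydrogenase, is also an enzyme of the tricarboxylic acid cycle and has no subunit encoded in the mitochondrion. SDHA, the flavoprotein, stood at 329, 347, 671, 739, 686 and 536 FPKM through the release and 581 asynchronous. SDHB, the iron-sulfur subunit, stood at 112, 126, 247, 225, 195 and 167 and 149 FPKM. The membrane anchors parted: SDHD went from 252 to 502 FPKM, SDHC from 92.5 to 107. At 80 against 0 minutes SDHA was 2.04-, SDHB 2.19-, SDHD 1.99- and SDHC 1.16-fold higher, so that SDHD fell just short of 2-fold and SDHC was nearly level.

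In complex III the 4 members at least 2-fold higher were small subunits. UQCRQ stood at 119.7, 259, 429.6, 490.1, 274 and 245 FPKM through the release, 3.57-fold (95% counting interval 2.45 to 5.49) higher at 80 than at 0 minutes. UQCRB, a ubiquinone-binding subunit, went from 149 to 484 FPKM, 3.23-fold (95% counting interval 2.89 to 3.64) higher. UQCRH, the hinge protein at cytochrome c1, went from 175 to 508 FPKM (2.899-fold), and its copy UQCRHL from 198 to 474 FPKM (2.38-fold). The large core proteins UQCRC1 and UQCRC2 (1.72- and 1.76-fold) and the Rieske iron-sulfur protein UQCRFS1 (1.35-fold) stayed under 2-fold. So did the small subunits UQCR11 (1.51-fold) and UQCR10 (1.42-fold), so the members did not part by size.

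In complex IV all 5 members at least 2-fold higher were widely expressed subunits. COX8A, the common form of subunit 8, stood at 60.3, 69.9, 192, 71.04, 56.3 and 17.6 FPKM through the release and 36.3 asynchronous, 3.15-fold (95% counting interval 2.09 to 4.87) higher at 80 than at 0 minutes. COX6A1 went from 139 to 423 FPKM (3.03-fold), COX5B, which binds zinc, from 63.4 to 179.9 FPKM (2.81-fold) and COX7C from 146 to 397 FPKM (2.71-fold). COX6B1 (2.38-fold) was the fifth. The gene with the highest level, COX4I1, passed through 1009, 1426, 1723, 1647, 1134 and 649 FPKM. It was 1.71-fold higher at 80 than at 0 minutes, its peak.

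In complex V all 8 membrane genes of the list (the c-ring genes ATP5MC1, ATP5MC2 and ATP5MC3 with ATP5ME, ATP5MF, ATP5MG, ATP5MJ and ATP5MK) were at least 2-fold higher at 80 minutes, with a median of 1.21. ATP5MC1 was highest with 3.02-fold (95% counting interval 2.56 to 3.59). Of the 5 genes of the F1 head and its central stalk, 3 were at least 2-fold higher: ATP5F1D (2.99-fold), ATP5F1E (2.62-fold) and ATP5F1C (2.02-fold). The catalytic subunit beta, ATP5F1B, at 1.49-fold, and subunit alpha, ATP5F1A, at 1.76-fold, were not. Of the 4 genes of the peripheral stalk, which holds the head still, ATP5PF and ATP5PD were (2.18- and 2.15-fold), and ATP5PB and ATP5PO were not (1.43- and 1.37-fold). ATP5IF1, the protein that keeps the enzyme from running backward, had the highest mean of complex V and stood at 638, 945, 1434, 1405, 1237 and 930.2 FPKM through the release (2.25-fold at 80 minutes).

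The 3 c-ring genes code for the same mature protein behind different import signals, and they took different courses. ATP5MC1 stood at 229, 227, 694, 529.8, 425 and 375 FPKM and 352 asynchronous, a step up between 40 and 80 minutes followed by lower values. ATP5MC2 stood at 107, 115, 218, 254, 283 and 268 FPKM and 249.9 asynchronous, and its highest value came at 165 minutes. ATP5MC3 stood at 277, 405, 659.8, 707, 748 and 516 FPKM and 464 asynchronous, and also peaked at 165 minutes. The counting intervals of ATP5MC1 at 80 and 165 minutes did not overlap.

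**Figure D4:**
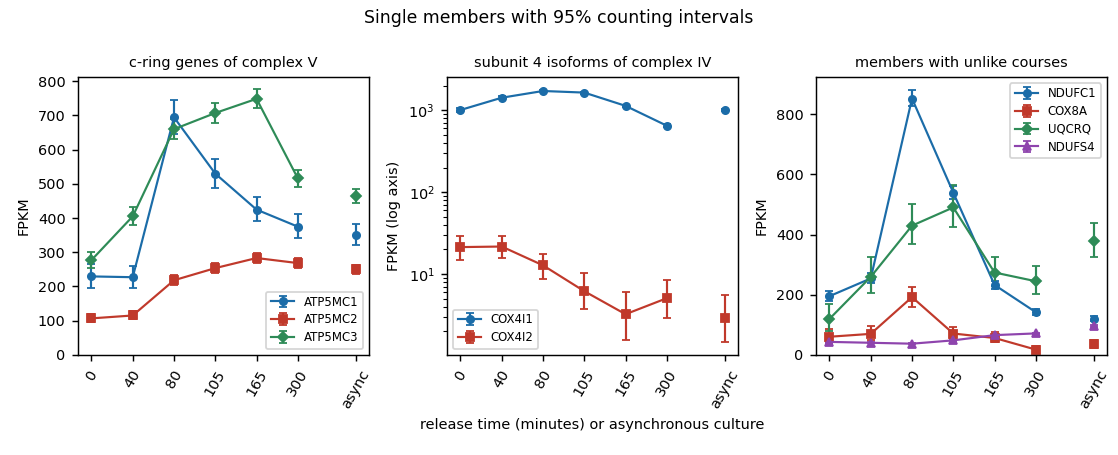
Single members in FPKM at the release times, evenly spaced, and in the asynchronous culture: the 3 c-ring genes, the subunit 4 forms COX4I1 and COX4I2 (log axis), and 4 genes of unlike course. Bars are 95% counting intervals if a step is 1 read and hold no replicate error; NDUFC1 and COX8A are highest at 80 minutes, UQCRQ at 105, and NDUFS4 at 300 within the release.

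The forms of complex IV subunits made mainly in other tissues were near the floor of the table. COX4I2, the lung form of subunit 4, was the one with a course: 21.3, 21.7, 12.8, 6.17, 3.23 and 5.07 FPKM through the release and 2.94 asynchronous. Its counting intervals at 0 minutes (14.9 to 29.1 FPKM) and in the asynchronous culture (1.47 to 5.62 FPKM) did not overlap, and it was 5.67-fold (95% counting interval 3.37 to 15.6) higher at 0 minutes. COX6B2 stood at 6.67, 12.3, 2.21, 5.94, 2.45 and 1.25 FPKM and 0.425 asynchronous. Its counting interval for 80 against 40 minutes lay below 1 (0.0422 to 0.52). Those for 40 against 0 and 105 against 80 minutes held 1. COX8C stood at 3.49, 0, 1.14, 4.57, 3.99 and 0 FPKM and 0 asynchronous, too few steps to order the times. COX7B2 stayed between 4.31 and 5.904 FPKM over a span of 174 kb, and COX7A1 between 0.468 and 4.86 FPKM. These 5 genes supplied all 3 members that were at least 2-fold higher at 0 minutes than in the asynchronous culture and both that were at least 2-fold lower at 80 than at 0 minutes. Without them, complex IV changed sign in the first of these comparisons relative to all genes, from 0.07 to -0.20. COXFA4L2 (formerly NDUFA4L2), a form known from low oxygen and not among the 86, went from 8.26 to 19.9 FPKM.

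Compared with the asynchronous culture, the members at 80 minutes overshot unequally. The median was 0.49, against 0.29 for all genes kept, with 14 members at least 2-fold higher (19.4%) and 1 at least 2-fold lower (10.8%). NDUFC1 (7.003-fold), COX8A (5.17-fold), ATP5F1D (4.64-fold) and NDUFA2 (3.29-fold), an accessory subunit of complex I, were highest beside COX4I2 (3.498-fold). NDUFS4 was the lower one at 2.51-fold. Complex IV (median 0.70, 5 of 16 at least 2-fold higher) and complex V (0.64, 2 of 20) lay above complexes I (0.21, 5 of 37), II (0.35, 0 of 4) and III (0.20, 2 of 9). Of the 5 of complex IV, 3 were the low forms COX4I2, COX6B2 and COX8C; without the low forms of that complex 2 of 11 were, with a median of 0.64, and 11 members in all. With quantile normalization the count of 14 became 8 (13.2% of all genes). The comparisons named here share columns, 0 minutes or 80 minutes or the asynchronous culture, so a column that is off moves several of them together.

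The highest value of the release came at 80 to 165 minutes in most members. Of the 86, 0 were highest at 0 minutes, 3 at 40, 34 at 80, 23 at 105, 20 at 165 and 6 at 300 minutes. Among all genes kept, 16.4% were highest at 0, 13.8% at 40, 23.1% at 80, 12.5% at 105, 13.1% at 165 and 21.1% at 300 minutes, so that 39.5% of members against 23.1% of genes peaked at 80 minutes. With quantile normalization the members' counts from 0 to 300 minutes became 8, 15, 27, 12, 17 and 7, and with equal medians 3, 6, 32, 15, 25 and 5. The 6 latest members were all of complex I, among them NDUFB4, NDUFC2, NDUFC2-KCTD14, NDUFS4 and NDUFS6. The asynchronous level was first reached at 0 minutes by 14 members (16.3%, against 45.5% of genes) and at 40 by 13 (15.1%, against 8.11%). It was first reached at 80 by 42 (48.8%, against 15.7% of genes) and at 105 by 7 (8.14%, against 4.03%). At 165 and 300 minutes 3 members each followed (3.49%, against 4.43% and 3.51%). NDUFA7, NDUFA10, NDUFS4 and NDUFV2, all of complex I, had not reached it by 300 minutes (4.65% of members, against 18.7% of genes). Under quantile normalization 56 members were already at the asynchronous level at 0 minutes.

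After 80 minutes the members held and then declined. From 80 to 105 minutes the median moved by 0.07 (all genes -0.04), with 2 members at least 2-fold higher (2.02%) and 1 lower (2.57%). The 2 were the low forms COX6B2 and COX8C, and the 1 was COX8A (2.68-fold). From 105 to 165 minutes the median was -0.15 (all genes -0.09), with 0 higher (2.27%) and 2 lower (5.27%), NDUFC1 (2.31-fold) and the low form COX6B2. From 165 to 300 minutes it was -0.27 (all genes -0.02), with 0 higher (3.04%) and 3 lower (4.1%), COX8A (3.09-fold) and the low forms COX7A1 and COX8C. COX8A and NDUFC1 were thus the only members reaching 25 FPKM in some group that fell at least 2-fold between neighbouring times after 80 minutes.

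Over the whole interval from 80 to 300 minutes the median member was at -0.43 and the median gene at -0.18. At least 2-fold lower were 12 members (13.8% of all genes kept), and 0 were at least 2-fold higher (8.12%). The counting interval lay below 1 for 54 members and above 1 for 18. The median was -0.25 in complex I (2 of 37 at least 2-fold lower), -0.44 in complex II (0 of 4), -0.28 in complex III (2 of 9), -0.66 in complex IV (5 of 16) and -0.46 in complex V (3 of 20). Among kept genes with a mean of 100 to 300 FPKM the median was -0.03, against -0.48 for 45 members of that range, of which 7 were at least 2-fold lower (14.0% of genes). Between 300 and 1000 FPKM it was -0.22, against -0.32 for 30 members, of which 1 was at least 2-fold lower (16.4% of genes).

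COX8A had the deepest fall, 10.4-fold (95% counting interval 6.23 to 20.3), to 17.6 FPKM, a value of only 13.9 steps. NDUFC1 fell 5.97-fold (95% counting interval 5.55 to 6.51), to 142 FPKM. NDUFA2 fell 3.04-fold (340.3 to 111 FPKM), COX4I1 2.65-fold (1723 to 649 FPKM) and UQCRH 2.54-fold (508 to 199 FPKM). These are a supernumerary subunit of complex I, a nuclear subunit of complex IV and the hinge protein of complex III. The other 7 were ATP5ME, ATP5MJ, COX6A1, UQCRB, ATP5F1D, COX4I2 and COX8C. At the other end, NDUFS4 was 1.89-fold higher at 300 than at 80 minutes, NDUFA9 1.41-fold, NDUFV2 1.41-fold and NDUFC2 1.36-fold. These are subunits of complex I, and the 7 catalytic core genes of complex I had a median of 0.16 in this comparison while the complex as a whole had -0.25. The core genes parted, with NDUFS8, NDUFS3 and NDUFS7 at -0.54, -0.49 and -0.46 and NDUFS1, NDUFV1 and NDUFV2 at 0.16, 0.23 and 0.49. With quantile normalization 7 of the 12 stayed at least 2-fold lower (10.3% of all genes were), COX8A, NDUFC1, NDUFA2, COX4I1, UQCRH, ATP5ME and ATP5MJ.

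At 300 minutes the median member was near its asynchronous level, with single members on both sides. It was at 0.08 and the median gene at 0.11, with 1 member at least 2-fold higher (9.84% of genes) and 1 at least 2-fold lower (8.57%). The counting interval lay above 1 for 35 members and below 1 for 25, it held 1 for 25, and COX8C, at 0 in both groups, had none. ATP5F1D was the higher one, 2.28-fold, at 75.1 against 32.3 FPKM, with a counting interval above 1. COX8A was the lower one, 2.01-fold (95% counting interval 1.05 to 4.12), at 17.6 against 36.3 FPKM. All complex medians lay between -0.11 (complex II) and 0.11 (complex V).

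In some of the comparisons the difference of a member went with the length of its gene. Spans from start to end of the gene, taken from GENCODE release 29 for 85 members and from the RefSeq gene length for NDUFA6, ran from 0.799 kb (ATP5MGL) to 174 kb (COX7B2), with a median of 8.79 kb. At 80 against 0 minutes the 18 members of up to 5 kb had a median of 1.29, with 12 at least 2-fold higher. The 46 members of 5 to 15 kb had 0.98, with 21, and the 15 of 15 to 40 kb 0.94, with 7. The 7 over 40 kb had 0.21, with 0. For all kept genes the medians in these bins were 0.64, 0.49, 0.39 and 0.10. At 300 against 80 minutes the order turned, with -0.84, -0.45, -0.19 and 0.20 in the members and -0.38, -0.37, -0.22 and 0.00 in all genes.

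Across the 86 members, Spearman's rho between span and the difference from 80 to 300 minutes was 0.49, and 0.44 over the 77 left without the low forms, readthrough genes and copies. Across 21882 kept genes with a span it was 0.24. For 80 against 0 minutes rho was -0.24 across the members and -0.23 across all genes. Between neighbouring times it was -0.33 from 0 to 40 minutes, -0.053 from 40 to 80, -0.015 from 80 to 105, 0.49 from 105 to 165 and 0.36 from 165 to 300 minutes. Against the asynchronous culture it was -0.19 at 0, -0.39 at 80 and 0.068 at 300 minutes. These are correlations across genes that share the same libraries, are not independent replicates and carry no p. NDUFS4 (123 kb) and NDUFA10 (68.03 kb) were the longest of complex I, and COX8A (1.94 kb) and NDUFA2 (2.501 kb) were short. NDUFC1, with 12.6 kb, was longer than the median member and had the next deepest fall after COX8A. The peak at 80 minutes and that at 105 minutes belonged to members with median spans of 9.48 and 5.91 kb, those at 165 and 300 minutes to members with 13.2 and 14.4 kb.

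**Figure D5:**
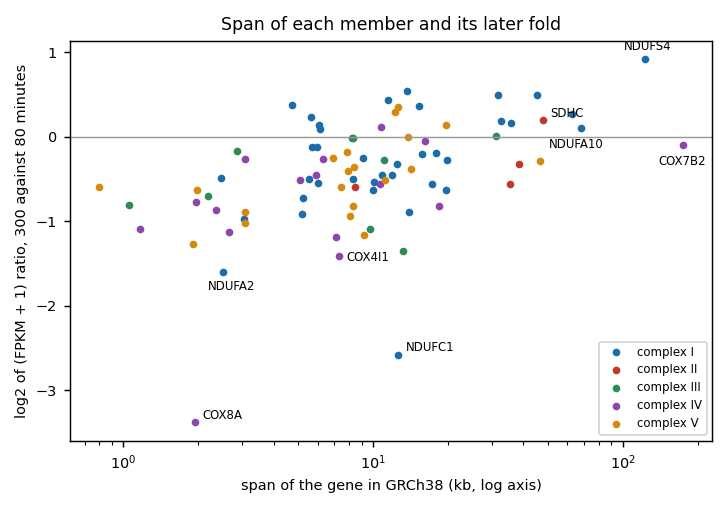
Span of each of the 86 members in kb (log axis, GRCh38) against log2 of the (FPKM + 1) ratio of 300 to 80 minutes, coloured by complex. COX8A, NDUFA2 and NDUFC1 lie lowest and NDUFS4 highest; Spearman's rho across the 86 genes is 0.49.

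The promoters were searched for the letters of 3 factors known to act on these genes. RefSeq promoters (250 bases before to 50 after the start, GRCh38.p14) were at hand for 69 of the 86 members, and the table held 27305 promoters in all. On either strand, GCGCATGCG, an NRF1 core, was found in 10 members (14.5%) and in 2.10% of all promoters. The shorter GCGCATGC, which includes the longer form, was found in 13 (18.8%) and 3.27%. The ETS letters CCGGAAG were found in 20 members (28.99%) and 10.7% of all promoters. For YY1, AAGATGGCG was found in 8 members (11.6%) and 1.85% of all promoters, and AAGATGG in 16 (23.2%) and 6.06%. Kept coding genes are the closer background, and their shares were higher than those of all promoters. They were 2.98% for GCGCATGCG, 4.57% for GCGCATGC, 15.4% for the ETS letters, 3.04% for AAGATGGCG and 6.61% for AAGATGG. At least 1 of the 3 shorter motifs was in 37 of the 69 members (53.6%), against 23.8% of 14154 kept coding genes. NRF1 and ETS letters stood together in 6 members, among them ATP5PF, SDHD and COX5B, whose sequences are given above, with COX6A1, ATP5ME and SDHB.

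Members with the ETS letters had a median of 1.14 at 80 against 0 minutes, those without 0.84. Among kept coding genes the medians were 0.79 with and 0.31 without, so the gap in the members was no larger than in genes at large. With GCGCATGC the members' median was 1.12 and without it 0.86 (coding genes 0.70 and 0.38). With AAGATGG it was 0.82 and without it 1.02 (coding genes 0.52 and 0.38). NDUFC1, with the largest rise, held none of these letters in the window. A match of letters does not show that a factor was bound.

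Some members share their start region with a gene on the other strand. Of the 69, 21 (30.4%) had a divergent neighbour starting within 1000 bases, against 13.1% of 14154 kept coding genes, and 19 of these neighbours were protein-coding. At 80 against 0 minutes, 8 of the 19 neighbours and 12 of their 19 members were at least 2-fold higher, with medians of 0.96 and 1.03 (20.1% and 0.31 for all genes kept). With equal medians 4 and 3 were (9.26% of all genes), and with quantile normalization 2 and 0 (7.05%). These pairs were listed after the members' values were seen. NDUFA7 (1.76-fold) faced RPS28, a gene of the small ribosomal subunit, which was 5.22-fold higher (57.6 to 305 FPKM). NDUFS3 (2.69-fold) faced KBTBD4 at 2.92-fold, and NDUFA1 (2.19-fold) faced RNF113A at 3.03-fold. COX4I1 faced EMC8, which took a like course, with 729 FPKM at 0, 1419 at 80 and 422 at 300 minutes. Some of these pairs also overlap, and they can share reads if reads were counted without regard to strand. KBTBD4 lies over 35.5% of the span of NDUFS3, EMC8 over 11.6% of that of COX4I1 and RNF113A over 6.59% of that of NDUFA1. NDUFA5 (2.004-fold) faced ASB15, which went from 13.5 to 6.99 FPKM.

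Overlap with other genes limits what some single values mean. Of the 86 members, 14 have at least 25% of their span under another named protein-coding gene, 8 of them on the same strand, and the labels do not say whether reads were counted by strand. ATP5MGL lies wholly within CYB5R3, COX8C within UNC79 and ATP5PD under KCTD2. TMCO6 lies on the other strand over 66.1% of the span of NDUFA2. It stood at 33.8, 156 and 89.3 FPKM at 0, 80 and 300 minutes, and its part in the values of NDUFA2 was not tested. Without the 14, 32 of the other 72 members were at least 2-fold higher at 80 than at 0 minutes and 8 were at least 2-fold lower at 300 than at 80 minutes. Protein-coding genes with only a clone name were not counted as overlaps. Such genes lie on the same strand over 99.3% of COX8A, 95.9% of COX6A1 and 99.6% of SDHD, among others. The 72 are therefore not free of overlap.

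Other genes of the pathway were counted in the same way, against 20.1% of all genes kept at least 2-fold higher at 80 than at 0 minutes, or 31.8% and 39.4% in the ranges of 100 to 300 and 300 to 1000 FPKM. Of the 4 nuclear subunits and carriers left out by their names, 1 was at least 2-fold higher at 80 than at 0 minutes, COXFA4 of complex IV (253 to 587 FPKM). CYCS, cytochrome c itself, peaked earlier, at 40 minutes (1595, 2591, 2017, 1991, 1552 and 1339.6 FPKM through the release). Of 50 assembly factors, which build the complexes without staying in them, 18 were higher and 0 were lower (median 0.84). With equal medians 7 were higher (9.26% of all genes) and with quantile normalization 4 (7.05%). At the extremes were COX20, which helps to mature a subunit of complex IV, at 5.05-fold (300.0 to 1519.8 FPKM), NDUFAF4 at 4.54-fold (139 to 635 FPKM) and SDHAF1, which serves the iron-sulfur subunit of complex II, at 4.20-fold (82.8 to 351 FPKM). COA3, an assembly factor of complex IV, was level (189 and 186 FPKM). At 0 minutes against the asynchronous culture 18 of the 50 were at least 2-fold lower (19.0% of all genes kept), with a median of -0.77, and at 300 against 80 minutes 1 was lower and 2 were higher, with a median of -0.02.

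Of 16 regulators and mitochondrial DNA factors, 7 were at least 2-fold higher at 80 than at 0 minutes, with a median of 0.87. With equal medians 4 were (9.26% of all genes), and with quantile normalization 1 (7.05%). POLRMT, the mitochondrial RNA polymerase, went from 83.3 to 309.8 FPKM and GABPA from 81.1 to 269 FPKM. NRF1 stood at 96.3 and 113 FPKM, 1.18-fold apart. PPARGC1A, the coactivator of mitochondrial biogenesis, stood at 18.4, 23.1, 26.5, 38.7, 49.03 and 62.8 FPKM through the release and 5.56 asynchronous, and was still 9.72-fold above the asynchronous level at 300 minutes. Of 17 genes of the tricarboxylic acid cycle and pyruvate dehydrogenase, 7 were at least 2-fold higher at 80 than at 0 minutes, with a median of 0.86. With equal medians 2 were (9.26% of all genes), and with quantile normalization 1 (7.05%). FH, fumarase, went from 80.5 to 251 FPKM and IDH3G, a subunit of isocitrate dehydrogenase, from 46.3 to 143 FPKM, while DLAT (265 and 271 FPKM) and SUCLG2 (33.96 and 25.7 FPKM) did not rise. At 0 minutes 4 of the 17 were at least 2-fold below their asynchronous level, against 19.0% of all genes kept.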

How the data were processed

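Nascent RNA was captured from EU-labelled HUH7 cells and sequenced. The authors deposited FPKM per RefSeq transcript, with 1 pooled column per group, per the file headers. Tools named in the submitters' processing notes are TopHat, Bowtie2 2.2.9, bedtools and bcl2fastq, with the build hg19. Not given in the sources used here are the role of each tool, the counting, its use of strand, the pooling, and whether the spike-in set entered the asynchronous column.

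Of 48205 transcripts, 97.8% matched a symbol of the RefSeq gene table (GRCh38.p14, used for names). Distinct transcript values of a gene were averaged, and 8 members had more than 1. Differences are log2 of the (FPKM + 1) ratio, with a pseudocount of 1 FPKM, which understates low genes; at least 2-fold was counted. The planned limma test needs a column per library and was not run. Counting intervals (95%, of a ratio of step counts) used steps of 2.18 to 4.06 FPKM times kb, from values under 5 FPKM. Spans are from GENCODE 29 on GRCh38, promoters from RefSeq. The scripts were tested on simulated data. Python 3.11.15, pandas 2.3.3, numpy 2.4.6, scipy 1.17.1 and matplotlib 3.10.9 were used.

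Members, gene lists and comparisons were chosen with earlier results of these data known. Genes named were to be the 5 largest and 5 smallest differences per comparison among members reaching 5 FPKM, the 2 highest means per complex, the core and isoform genes, the extremes of each other list, and ALB and AFP; any other member could be named. The values of 1 member are not reported here, though it stays in the counts and medians. Bins of mean level, divergent neighbours, gene overlaps and the scalings of the other lists were added after the values were seen. Other pseudocounts, filters, scalings and member sets were tried. Protein sequences were not analysed here.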

Additional observations from a re-analysis of the deposited data

How the results depend on the processing

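No paired analysis was possible because the table has 1 pooled column per group, and for the same reason no library was left out in turn. For 54 values, 444 alternative values from 10 settings were computed. Of these, 369 kept their direction and moved by less than the counting error or, for counts, by at most 1.5 times. The other 66 moved further and 9 changed sign. The cause was not tested. Complex medians in this section are relative to the median of all genes kept. The main limits are the scaling of the columns, which pooled FPKM do not settle, and the depth of the short and low genes. Taking the highest transcript of a gene moved no value further than that. Without the 4 readthrough genes and copies, members at least 2-fold higher at 40 against 0 minutes became 2 (from 3), without UQCRHL.

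With quantile normalization, members at least 2-fold higher became 4 (from 40) at 80 against 0 minutes, 8 (from 3) at 0 minutes against asynchronous and 8 (from 14) at 80 minutes against asynchronous. The shares of all genes were 7.05%, 12.0% and 13.2%. Members at least 2-fold lower became 1 (from 9) at 0 minutes against asynchronous, 7 (from 12) at 300 against 80 minutes and 0 (from 1) at 300 minutes against asynchronous. Of all genes, 11.9%, 10.3% and 9.03% were. The median at 0 minutes against asynchronous was -0.071 for complex I, changed sign to 0.11, 0.13 and 0.15 for complexes II, III and V, and was 0.40 for complex IV. At 40 against 0 minutes it changed sign to -0.075 and -0.062 for complexes II and V. At 80 against 0 minutes it was 0.19, 0.17, 0.066 and 0.35 for complexes I, II, III and V, and changed sign to -0.013 for complex IV. At 80 minutes against asynchronous it changed sign to 0.033 for complex I and was -0.011 for complex III and 0.41 for complex V. At 300 against 80 minutes it was -0.14 for complex I and -0.20 for complex III. At 300 minutes against asynchronous it changed sign to 0.071 for complex I and was -0.15 for complex II and 0.064 for complex V. The peak fell at 0, 40 and 105 minutes in 8, 15 and 12 members, and the asynchronous level was first reached at 0, 40, 80 and 300 minutes by 56, 8, 4 and 1. At 80 against 40 minutes the share of higher genes among those at least 2-fold apart went from 83.2% to 56.6%, at 80 minutes against asynchronous from 64.3% to 49.0%, at 300 against 80 minutes from 37.0% to 50.04% and at 165 against 105 minutes from 30.1% to 40.3%.

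With equal medians, 14 members were at least 2-fold higher at 80 against 0 minutes (9.26% of all genes). At 0 minutes against asynchronous 5 were higher (23.0%) and 1 lower (10.7%). The peak fell at 0, 40 and 105 minutes in 3, 6 and 15 members, and the asynchronous level was first reached at 0, 80 and 165 minutes by 29, 23 and 7. The share of higher genes at 80 against 40 minutes became 59.0%.

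With a filter of 10 FPKM in 3 groups, which 82 members passed, the medians at 0 minutes against asynchronous were -0.28, -0.12, -0.12 and -0.054 for complexes I, II, III and V, and at 80 against 0 minutes 0.38, 0.51, 0.31 and 0.61. Counts became 1 higher at 0 minutes against asynchronous, 0 lower at 40 against 0 minutes and 0 lower at 80 against 0 minutes. Without a filter, complex II was at -0.44 at 0 minutes against asynchronous.

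A pseudocount of 5 gave -8.97e-05, 0.14, -0.012 and 0.42 for complexes I, II, III and V at 80 minutes against asynchronous, -0.30 and -0.24 for complexes II and IV at 300 against 80 minutes, and 0 lower members at 40 against 0 minutes, 80 against 0 minutes and 300 minutes against asynchronous. A pseudocount of 0.1 gave -0.60 for complex IV at 300 against 80 minutes and 2 higher members at 300 minutes against asynchronous.

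Without the 5 low isoforms (chosen after seeing the data), complex IV was at -0.20 at 0 minutes against asynchronous, where it changed sign from 0.07, at 0.67 at 80 against 0 minutes and at -0.37 at 300 against 80 minutes. Counts became 0 higher at 0 minutes against asynchronous, 0 lower at 40 against 0 minutes and 0 lower at 80 against 0 minutes. Without the 14 overlapped members (also chosen after seeing the data), complexes IV and V were at -0.37 and -0.20 at 300 against 80 minutes, with 0 lower members at 40 against 0 minutes and 1 at 80 against 0 minutes.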
